A study of Homo sapiens with 12 samples.

Results

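The comparison described here sets 2 libraries labelled E2A knockout against 2 wild-type libraries at day 7 of directed differentiation of human embryonic stem cells into cardiomyocytes, across all genes that passed a filter on low values. Its members were taken from the sample titles, and they are 4 of the 12 libraries of the study. The cells are of H7, an established human embryonic stem cell line. Wild-type cells and cells with the genotype given as E2A-/- were sampled at days 3, 7 and 15 with 2 libraries a group. The day 7 cells are named cardiomyocytes in the labels. Nothing in the labels says whether the knockout line is 1 clone, where the gene was edited or whether replicates came from separate cultures. Each p-value therefore reflects only how far libraries of a group spread, which may be technical. That spread was estimated from all 12 libraries, those of days 3 and 15 included. The values are FPKM, fragment numbers that are scaled for the length of the transcript and the depth of the library. Of 17096 listed genes, 16295 reached 1 FPKM in at least 2 of the 12 libraries and were tested, and 801 did not.

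E2A is the older name of TCF3, which was read first. At day 7 its level was 135 and 138 FPKM in wild-type and 179.9 and 172 FPKM in labelled knockout libraries, and the log2 change of 0.36 did not pass the test (SE 0.19, adjusted p = 0.159). The change passed the test in a fit on the day 7 libraries alone (adjusted p = 0.0172) and when the libraries were scaled to the same sum of nuclear genes (0.57, adjusted p = 0.0234). The mRNA of the targeted gene was thus not lower at day 7. Protein was not measured, and the libraries are called by their label throughout. Each change below is a difference of mean log2(FPKM + 1), wild type subtracted from labelled knockout, and its SE is from limma. Genes are said to have risen or fallen, or to be higher or lower, in the labelled knockout where the adjusted p was under 0.05.

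The FPKM of a day 7 library summed to between 605392 and 648915, and the steps between low values correspond to an estimated 9500000 to 11700000 fragments per library. Replicates correlated across genes at r = 0.989 in the wild type and 0.980 in the labelled knockout. The share of summed FPKM that is mitochondrially encoded was 8.55% and 8.14% in wild-type and 20.2% and 18.5% in labelled knockout libraries. In the libraries of days 3 and 15 it was between 13.9% and 26.2%, so the day 7 wild type had the lowest shares of the study. Of all genes tested 22.1% rose and 19.9% fell. Of 7 cardiomyocyte markers tested, 6 fell, and their summed level was 6076 and 6073 against 1173 and 1018 FPKM. Smooth muscle markers (4 of 5), endothelial markers (4 of 5), endoderm markers (3 of 4) and fibroblast markers (2 of 3) also fell, with summed levels of 1007 and 1036 against 169 and 149.7 FPKM, 117 and 103 against 65.2 and 56.2 FPKM, 121 and 132 against 40.2 and 38.9 FPKM, and 643 and 609.6 against 422 and 344 FPKM. All 4 neural progenitor markers tested of 6 fixed rose, from a sum of 26.9 and 27.5 to 215 and 228 FPKM. The other fixed ones, SOX1 and PAX6, were not among the listed genes. Of the neuron markers 2 of 4 rose, though the summed level was 76.7 and 81.4 against 73.5 and 77.4 FPKM because TUBB3 held most of it, and DCX was under 1 FPKM in all 4 libraries. Neural crest markers (1 of 3 higher) summed to 8.18 and 8.73 against 42.7 and 36.7 FPKM, most of the labelled knockout's level being PAX3, and pluripotency markers (2 of 3 higher) to 766 and 737 against 1073 and 985 FPKM. Markers of epicardium, paraxial mesoderm and blood that were tested (1, 2 and 1) gave no call and summed to under 5 FPKM in each library. More markers were fixed than tested for cardiomyocytes (8), fibroblasts (7), endoderm (6), neurons (6), neural crest (5) and pluripotency (4). The same held for epicardium (5), paraxial mesoderm (5) and blood (6). No listed gene was at 0 in any library, so a marker at 0 could not have been seen here. In RNA of whole cultures fewer cells of a type and less RNA per cell cannot be told apart, and the part of the other cell types in the changes below was not tested.

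E proteins such as TCF3, TCF4 and TCF12 are basic helix-loop-helix transcription factors that bind DNA as pairs, often with a tissue-specific partner, at the E-box motif CANNTG. The ID proteins lack the DNA-binding region and hold E proteins in inactive pairs. Cardiomyocytes arise from mesoderm that passes through a progenitor state under BMP, activin and NODAL, WNT and FGF signals, and then builds sarcomeres, calcium stores and an oxidative metabolism. Neural ectoderm is the fate that pluripotent cells take where BMP and NODAL signals are low.

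The partners of TCF3 were read next. TCF4 read 37.6 and 32.2 FPKM in wild-type and 70.5 and 42.1 FPKM in labelled knockout libraries (0.63, SE 0.24, adjusted p = 0.0537). Its replicates disagreed, and the change passed without labelled knockout replicate 2 (1.00) and under 4 other settings. TCF12 stood at 35.4 and 33.8 against 49.1 and 41.1 FPKM and did not pass (0.37). Of the inhibitors, ID1 fell from 676 and 739.9 to 336 and 311 FPKM (-1.13, SE 0.11), ID2 from 291 and 289 to 175 and 185 FPKM (-0.69) and ID3 from 149 and 171 to 91.7 and 103 FPKM (-0.71). The groups did not overlap for any of the 7 E protein and ID genes tested, nor for 74.6% of all genes tested. ID4, at 60.8 and 61.6 against 52.7 and 59.3 FPKM, did not pass (-0.13).

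Because E proteins bind E-boxes, the 250 bases before the start site are shown for the genes with the largest falls and rises that have an entry in the RefSeq promoter table. They are NPPA (chr1:11847784-11848033), CKM (chr19:45322876-45323125), SOX21 (chr13:94712546-94712795) and PAX3 (chr2:222298999-222299248), all on the minus strand of GRCh38.p14 and printed 5′ to 3′ along the gene. The starts are those of RefSeq and differ from GENCODE 29. In GENCODE coordinates the NPPA window lies within the NPPA gene and the CKM window overlaps the CKM gene. Capitals mark each match to CANNTG, a motif that reads the same on both strands.
NPPA: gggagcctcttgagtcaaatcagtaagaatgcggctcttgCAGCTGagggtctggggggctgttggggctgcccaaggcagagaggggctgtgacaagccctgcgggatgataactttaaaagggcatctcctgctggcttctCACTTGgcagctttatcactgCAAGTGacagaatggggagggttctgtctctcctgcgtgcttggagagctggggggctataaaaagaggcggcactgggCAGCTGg
CKM: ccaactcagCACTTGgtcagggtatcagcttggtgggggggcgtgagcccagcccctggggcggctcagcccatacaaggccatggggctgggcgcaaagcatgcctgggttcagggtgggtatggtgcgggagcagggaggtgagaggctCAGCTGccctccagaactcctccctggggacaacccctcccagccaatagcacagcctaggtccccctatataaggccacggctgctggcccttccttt
SOX21: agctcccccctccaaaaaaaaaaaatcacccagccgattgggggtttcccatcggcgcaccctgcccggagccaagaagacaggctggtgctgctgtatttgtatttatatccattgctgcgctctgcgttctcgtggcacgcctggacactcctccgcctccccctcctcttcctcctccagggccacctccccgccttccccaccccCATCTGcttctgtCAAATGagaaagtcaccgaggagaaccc
PAX3: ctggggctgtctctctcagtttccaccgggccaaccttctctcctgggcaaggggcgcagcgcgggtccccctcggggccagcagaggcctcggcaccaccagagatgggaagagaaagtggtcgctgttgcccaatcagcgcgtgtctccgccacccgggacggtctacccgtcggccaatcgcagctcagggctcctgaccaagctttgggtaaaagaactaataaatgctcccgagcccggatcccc
NPPA holds 4 matches, 2 of them CAGCTG. CKM holds 2, 1 of them CAGCTG, SOX21 holds 2 and PAX3 none. Of the 16046 promoters of genes tested, 54.4% held a CANNTG match in the same window, against 53.2% of 3233 promoters of genes that rose, 54.8% of 3653 of genes that fell and 54.7% of 9164 of genes that did not pass. CAGCTG, which is 1 form of CANNTG, was held by 12.9%, 13.1% and 13.4% of these, and CAGGTG, another form, searched on both strands, by 15.1%, 18.0% and 15.8%. These shares are given as a description and were not tested. A match is a run of letters and not a binding site.

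In all, 6852 of 16295 genes tested changed (42.0%), 3602 higher (22.1%) and 3250 lower (19.9%) in the labelled knockout. Of these, 1291 (7.92%) were higher and 1129 (6.93%) lower by at least 1 on the log2 scale, and 101 (0.62%) and 130 (0.798%) by at least 2. The median change of all genes was 0.06 and the median absolute change 0.45. Genes that rose made up 52.6% of those changed, but 68.1% under the scaling to the same sum of nuclear genes, where the median was 0.22. The share was 48.5% without labelled knockout replicate 1 and 49.1% with the filter at 5 FPKM, so which direction held more genes depends on these choices. The groups did not overlap for 12159 genes (74.6%), with the labelled knockout above the wild type for 39.8% and below it for 34.8%. They did not overlap for any gene named below as risen or fallen, which the choice of the largest changes required for those. Leaving out 1 library left 4703 and 4512 changed genes without wild-type replicates 1 and 2, and 5102 and 5252 without labelled knockout replicates 1 and 2.

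The direction went with the level of a gene. Of 863 genes with a mean of 100 FPKM or more over the 4 libraries, 43.9% fell and 14.8% rose, and the median change was -0.28. Of 4203 genes between 1 and 5 FPKM, 12.5% fell and 24.2% rose, with a median of 0.19. By GENCODE gene type, 20.6% of 13320 protein-coding genes rose and 22.8% fell. Long intergenic RNAs (32.9% of 173 higher, 9.25% lower), antisense RNAs (30.9% of 259 higher, 6.56% lower) and transcribed unprocessed pseudogenes (43.2% of 155 higher, 5.16% lower) rose more often than they fell. How the authors treated strand and reads with several placements is not described in the labels, and single antisense genes and pseudogenes are uncertain.

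**Figure D1:**
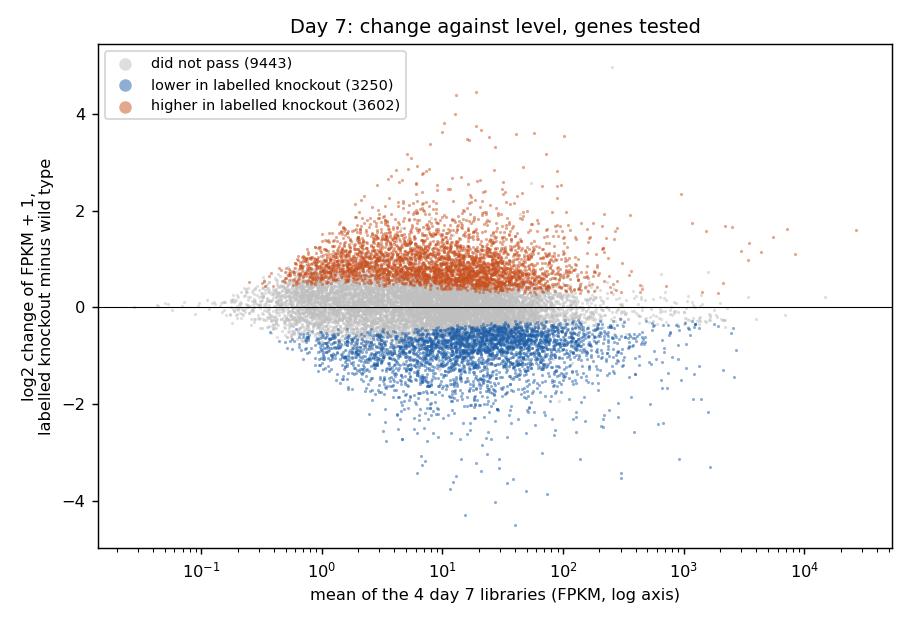
Each point is 1 of the 16295 genes tested at day 7, by its mean FPKM in the 4 libraries (log axis) and its log2 change of FPKM + 1. Orange points are the 3602 genes that rose, blue points the 3250 that fell, and the fall of abundant genes shows as the blue excess right of 100 FPKM.

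The 12 largest falls were mostly of genes of heart and muscle. NPPA, the atrial natriuretic peptide, a hormone of the working chambers, read 73.96 and 82.1 FPKM in wild-type and 2.09 and 2.9 FPKM in labelled knockout libraries (chromosome 1, 11845709 to 11848345, in GENCODE 29 on GRCh38, -4.51, SE 0.17, adjusted p = 1.48e-07). MYH7, the slow and ventricular myosin heavy chain, stood at 31.1 and 29.3 against 0.551 and 0.635 FPKM, a 50.9-fold difference of the means. CKM, the muscle creatine kinase (chromosome 19, 45306414 to 45322977), stood at 49.8 and 54.9 against 2.39 and 2.1 FPKM (-4.04, SE 0.15, adjusted p = 1.48e-07). All 3 were thus low in both labelled knockout libraries. HSPB7, a small heat shock protein of heart muscle, fell from 135 and 140.3 to 10.7 and 6.64 FPKM, and ADPRHL1, an ADP-ribosylhydrolase-like protein of the heart, from 21.7 and 22.8 to 1.18 and 0.362 FPKM. CAPN3, the muscle calpain, fell from 65.5 and 63.1 to 4.19 and 4.27 FPKM. TNNC1, troponin C of slow and cardiac muscle, fell from 536 and 578 to 51.6 and 49.8 FPKM, and ACTA2, smooth muscle actin, from 554 and 561 to 50.5 and 44.3 FPKM. CSRP1, a LIM-domain protein of smooth muscle, fell from 71.00 and 71.6 to 9.33 and 2.72 FPKM, and here the labelled knockout replicates differed by more than 3 times. The other 3 were IGFBP7, a secreted binding protein of insulin-like growth factors (-3.80, from 91.7 and 94.4 to 5.99 and 5.5 FPKM), MASP1, a protease of the complement system (-3.61), and IAH1, an esterase (-3.50).

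The 12 largest rises were led by regulators of neural tissue. SOX21, an HMG-box factor of neural progenitors, read 0.595 and 0.877 FPKM in wild-type and 35.7 and 38.3 FPKM in labelled knockout libraries (chromosome 13, 94709622 to 94712399, 4.46, SE 0.18, adjusted p = 2.05e-07). PAX3, a paired-box factor of dorsal neural tube, neural crest and muscle precursors, stood at 0.342 and 0.204 against 26.6 and 25.04 FPKM (chromosome 2, 222199888 to 222298996, 4.4, SE 0.18, adjusted p = 2.05e-07). POU3F1, a POU-domain factor of neural fate, rose from 0.545 and 0.673 to 23.6 and 26.2 FPKM. These 3 genes were below 1 FPKM in both wild-type libraries and above 20 FPKM in both others. ZIC2, a zinc finger factor of the neural plate, rose from 7.67 and 8.16 to 105 and 109 FPKM and SP8, a zinc finger factor of forebrain and limb, from 1.89 and 1.62 to 38.8 and 33.4 FPKM. VGF, a neurosecretory protein, rose from 0.372 and 0.625 to 21.2 and 18.9 FPKM, and MAP2, which binds microtubules in dendrites, from 1.51 and 2.89 to 45.9 and 32.4 FPKM. ZFHX4, a zinc finger homeobox factor, rose by 3.62, and TTYH1, a membrane protein of neural stem cells, by 3.52. TPBG, a cell surface glycoprotein of embryonic tissue, rose from 14.8 and 15.3 to 179 and 195 FPKM, and FGFBP3, which binds fibroblast growth factors, from 5.44 and 5.27 to 74.2 and 76.99 FPKM. The last is RPS20P22, a pseudogene with the sequence of a ribosomal protein gene, at 1.21 and 2.31 against 21.2 and 39.6 FPKM, and reads of its parent gene cannot be told apart here.

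**Figure D2:**
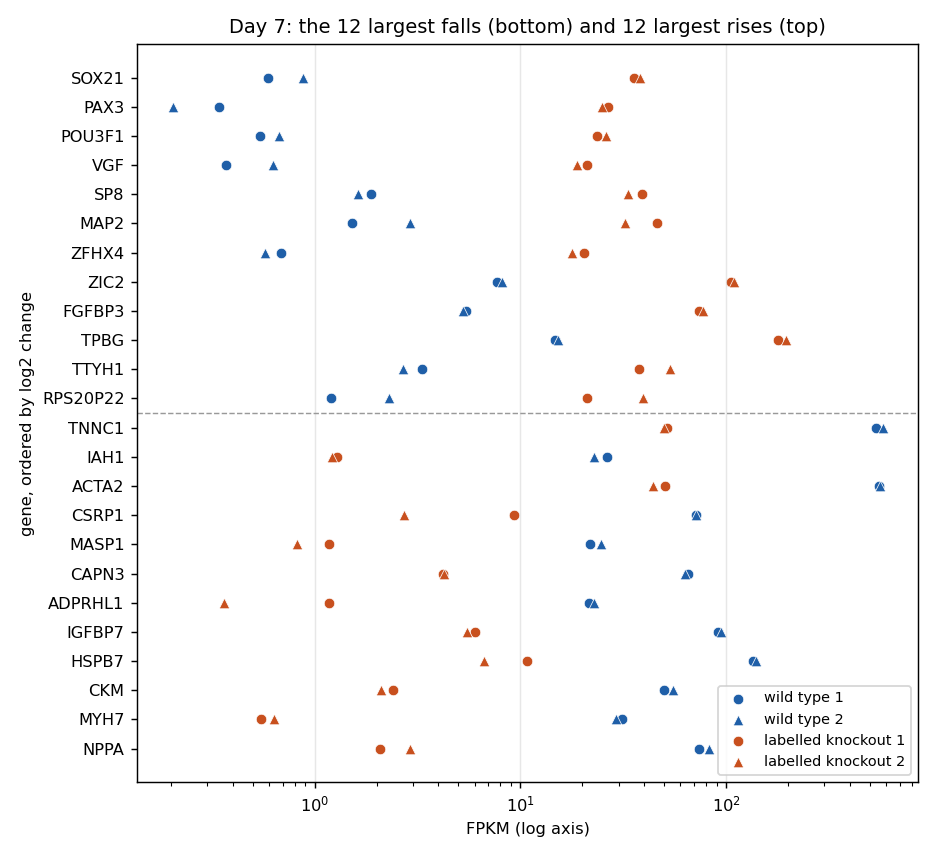
FPKM (log axis) of the genes with the 12 largest rises (above the dashed line) and the 12 largest falls (below it) in each day 7 library. Circles are replicate 1 and triangles replicate 2; blue symbols are wild type and orange symbols labelled knockout, which do not overlap because the genes were chosen so, and SOX21 and PAX3 lie below 1 FPKM in the wild type and between 25.04 and 38.3 FPKM in the labelled knockout.

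Sarcomere genes were lower along the whole filament system, though not evenly. Of 9 thick filament and M-band genes tested of 14 fixed, 5 fell and 1 rose, with a median of -1.89 against 0.06 for all genes. MYL7, the atrial regulatory light chain, stood at 2994 and 3007 against 301 and 304 FPKM, and MYL4, the atrial essential light chain, at 1103 and 1159 against 214 and 213 FPKM. MYOM1, which cross-links myosin at the M-band, fell from 26.7 and 24.1 to 3.71 and 4.31 FPKM, and MYH6, the atrial heavy chain, from 1921 and 1848 to 555 and 463 FPKM. TTN, the titin spring, stood at 19.8 and 18.4 against 16.4 and 11.9 FPKM and did not pass (-0.42). It was thus not among the genes called lower. MYH6 and MYH7 are near-identical neighbours on chromosome 14, and reads that fit both, or several actin genes, could have been split between them.

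All 11 thin filament genes tested of 13 fixed fell, with a median of -1.57. ACTC1, cardiac actin, stood at 1617 and 1670.1 against 201 and 173 FPKM, TNNT2, cardiac troponin T, at 810.2 and 852 against 237 and 182 FPKM, and TNNI1, the slow troponin I of embryonic heart, at 460.4 and 478 against 81.1 and 114 FPKM. TMOD1, which caps the slow-growing end of actin filaments, fell from 37.9 and 37.6 to 4.58 and 4.25 FPKM. TPM1, tropomyosin, fell less, from 2932 and 3128 to 1294 and 1164 FPKM (-1.30). The fall was smallest for TPM2 (-0.60) and TNNT1 (-0.67), a tropomyosin and the slow skeletal troponin T. Of 12 Z-disc genes tested of 19 fixed, 9 fell and none rose (median -1.64). ACTN2, the alpha-actinin of the Z-disc, stood at 121 and 120.4 against 15.2 and 12.9 FPKM, ANKRD1, a stretch-responsive cofactor, at 218 and 222 against 34.8 and 37.6 FPKM, and DES, desmin, at 12.2 and 14.7 against 2.66 and 2.15 FPKM. LDB3, a PDZ-LIM protein of the Z-disc, fell by 2.10. Of 12 calcium handling genes tested of 16 fixed, 11 fell (median -1.07). TRDN, triadin of the calcium release complex, stood at 13.99 and 11.1 against 1.89 and 0.946 FPKM, and HRC, a calcium-binding protein of the reticulum, at 52.8 and 51.3 against 14.7 and 14.6 FPKM. ATP2A2, the calcium pump SERCA2, stood at 157.1 and 152 against 119.8 and 111 FPKM, a small fall (-0.42) that did not pass when scaled to the nuclear sum (-0.22, adjusted p = 0.0642).

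Genes of electrical activity moved both ways. Of 20 ion channel and gap junction genes tested of 23 fixed, 8 fell and 4 rose, beside 19.9% and 22.1% of all genes tested. KCNIP2, the subunit of the transient outward current, stood at 36.8 and 43.3 against 6.96 and 3.91 FPKM, and KCNH2, the rapid delayed rectifier, at 34.7 and 36.8 against 11.1 and 10.2 FPKM. CACNA1C, the L-type calcium channel of working myocardium, fell from 9.2 and 11.97 to 2.54 and 3.41 FPKM, and HCN4, the main pacemaker channel, from 13.2 and 13.6 to 5.64 and 4.74 FPKM. KCNJ5, an inward rectifier of atria, fell by 1.6. Among those that rose were GJC1, connexin 45 of the early heart (49.3 and 47.7 to 104 and 82.7 FPKM, 0.92) and the T-type calcium channels of immature cells CACNA1H (0.69) and CACNA1G (0.66). CACNA1G and CACNA1H were named after their values were seen, as were the genes elsewhere that complete a small count or illustrate a list beyond the members the naming rule takes. The call of CACNA1G did not hold without wild-type replicate 1 (0.66) or 2 (0.66) or labelled knockout replicate 1 (0.48). Without wild-type replicate 1 or 2 the count of channel genes that rose was 2. GJA1, connexin 43 and the most abundant member, stood at 288 and 275 against 213 and 210.5 FPKM, a change of -0.41 whose call ended under the nuclear scaling (-0.20) and without wild-type replicate 1 (-0.38).

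Cardiac transcription factors fell in 16 of 19 cases tested of 20 fixed (median -1.17), and none rose. HAND1, a basic helix-loop-helix factor of the left ventricle that pairs with E proteins, stood at 142 and 151 against 23.8 and 21.6 FPKM. NKX2-5, the homeobox factor of cardiac progenitors, stood at 204 and 223 against 44.8 and 42.5 FPKM. The zinc finger factor GATA4 fell from 94.7 and 94.2 to 47.3 and 36.2 FPKM, the T-box factor TBX20 from 30.6 and 30.01 to 11.7 and 8.89 FPKM, and MYOCD, myocardin, from 66.6 and 59.5 to 27.2 and 22.7 FPKM. TBX5 (-0.04), IRX4 (-0.11) and IRX3 (0.14) did not pass. In the list of second heart field and outflow progenitors 5 of 11 tested fell and none rose (15 fixed). They were WNT11, a ligand of non-canonical WNT signalling, at 34.4 and 43.1 against 1.83 and 4.07 FPKM, FGF10, at 34.9 and 31.7 against 7.06 and 7.86 FPKM, ISL1, the LIM-homeobox factor of this field, at 72.9 and 73.9 against 25.6 and 24.2 FPKM, BMP4, at 209 and 211 against 84.8 and 77.8 FPKM, and MEF2C (-0.77). The call of MEF2C ended without wild-type replicate 1 (-0.67) or 2 (-0.87) or labelled knockout replicate 2 (-0.54), and under the nuclear scaling (-0.57). MESP1, the factor of early cardiac mesoderm, was below 1 FPKM in all 4 libraries and did not pass (-0.61), except in a fit on day 7 alone (adjusted p = 0.0305).

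Genes of hormones, oxygen storage and energy reserve had the lowest median of the lists (-2.27), with 9 of 10 tested lower (13 fixed). Besides NPPA and CKM, MB, myoglobin, stood at 56.8 and 62.7 against 8.66 and 8.36 FPKM, and FABP3, the fatty acid binding protein of heart, at 46.8 and 59.6 against 4.96 and 5.29 FPKM. CKB, the brain-type creatine kinase, which is the abundant form here, stood at 996 and 1061 against 179 and 205 FPKM (-2.42, SE 0.12). PYGM, muscle glycogen phosphorylase, stood at 48.3 and 46.5 against 10.5 and 9.65 FPKM.

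The oxidative machinery moved in opposite directions according to the genome that encodes it. All 13 mitochondrially encoded transcripts rose, with a median of 1.59 and a summed level of 38057 and 37125 FPKM in the wild-type libraries against 113516 and 93239 FPKM. The mitochondrial share of the wild type was itself low at day 7 (8.55% and 8.14%), against 16.9% and 15.7% at day 3 and 26.1% and 26.2% at day 15. MT-ND1, a subunit of complex I, stood at 1020.4 and 1077 against 3365 and 3346 FPKM, MT-CYB, cytochrome b, at 543 and 537 against 1886 and 1752 FPKM, and MT-CO1, a subunit of complex IV, at 5274 and 5203 against 12695 and 10094 FPKM. MT-ND4L had the largest rise (2.34) and MT-ND3 the smallest (0.98). Nuclear copies of these genes could share their reads. Of 62 nuclear-encoded respiratory subunits tested of 77 fixed, 54 fell and none rose (median -0.78). The fall held in every complex: 21 of 26 subunits of complex I, 3 of 4 of complex II, 7 of 7 of complex III, 9 of 10 of complex IV and 14 of 15 of ATP synthase fell. Among them were COX6B1 of complex IV (-1.57), UQCRB of complex III (-1.35), SDHA of complex II (-1.06) and NDUFA2 of complex I (-1.18). ATP5A1, the alpha subunit of ATP synthase, stood at 590.1 and 593 against 272 and 247 FPKM, and ATP5G1, a subunit of its rotor, at 76.7 and 92.3 against 20.7 and 17.9 FPKM. When libraries were scaled to the nuclear sum, 41 of the 62 still fell and 1 rose (median -0.57), and the 13 mitochondrial transcripts rose with a median of 1.79.

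Of 27 genes of glycolysis and the hypoxia response tested (28 fixed), 24 fell and none rose (median -1.15). Their summed level was 15379 and 15564 FPKM in the wild-type libraries against 7309 and 7096 FPKM. SLC2A3, the high-affinity glucose transporter GLUT3, stood at 2243 and 2122 against 627 and 551 FPKM, and HK1, a hexokinase, at 152 and 151 against 62.3 and 50.97 FPKM. ALDOA, aldolase, fell from 1677 and 1855 to 653 and 699 FPKM and LDHA, lactate dehydrogenase, from 1213 and 1205 to 618 and 534 FPKM. GAPDH, often used as a reference gene, fell from 3437 and 3526 to 1855 and 1943 FPKM (-0.87, SE 0.10). BNIP3, a hypoxia-induced mitophagy receptor, fell by 1.63, and P4HA1, a prolyl hydroxylase subunit of collagen assembly, fell by 1.41. VEGFA, PFKM and EGLN3 did not pass. Under the nuclear scaling 22 of the 27 fell. Of 24 genes of mitochondrial biogenesis and fatty acid oxidation tested of 26 fixed, 13 fell and 3 rose. CPT1A, the liver form of the enzyme that carries fatty acids to the mitochondrion, fell from 3.46 and 4.96 to 0.775 and 0.856 FPKM, while its muscle form CPT1B rose from 6.48 and 6.3 to 25.7 and 28.7 FPKM and its brain form CPT1C from 34.1 and 34.96 to 72.2 and 74.9 FPKM. The forms of 1 enzyme therefore moved in opposite directions. PPARGC1A, a coactivator of mitochondrial biogenesis, fell by 1.04 and ESRRG, a nuclear receptor of oxidative muscle, fell by 1.63. ACADVL, the third that rose (0.38), lost its call without wild-type replicates 1 (0.29) and 2 (0.48) and labelled knockout replicate 2 (0.30).

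**Figure D3:**
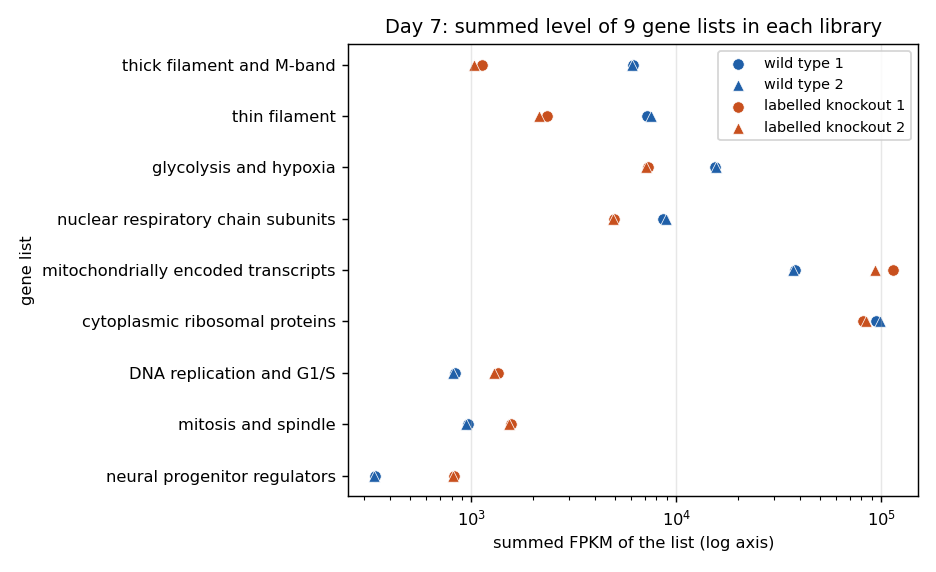
Summed FPKM (log axis) of 9 gene lists in each day 7 library, with circles for replicate 1 and triangles for replicate 2. Sums of filament, glycolysis and nuclear respiratory genes are lower in the labelled knockout (orange), and those of mitochondrially encoded transcripts, replication, mitosis and neural progenitor genes are higher than in the wild type (blue).

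Regulators of neural progenitors rose. Of 19 tested of 33 fixed, 14 rose and 1 fell, with a median of 1.72. SOX2, the HMG-box factor of pluripotent and neural cells, stood at 20.98 and 21.2 against 153 and 157.3 FPKM (2.82, SE 0.16, adjusted p = 1.71e-06). Its relatives SOX3 and SOX11 rose by 1.56 and 1.09. Members of the ZIC family, zinc finger factors of the dorsal neural tube, rose together, ZIC5 by 2.17 and ZIC1 by 1.46. The Iroquois homeobox genes IRX1, at 4.64 and 5.11 against 34.4 and 36.9 FPKM, and IRX2, at 4.87 and 6.43 against 28.02 and 30.02 FPKM, rose as well, and FEZF1, a forebrain factor, stood at 2.86 and 2.61 against 17.2 and 21.8 FPKM. LHX2, a LIM-homeobox factor of forebrain, was the exception at 3.4 and 1.46 against 0.363 and 0.907 FPKM (-1.03), and its call ended without wild-type replicate 1 (-0.61) and labelled knockout replicates 1 (-0.79) and 2 (-1.27) and under the nuclear scaling (-0.92). NES, nestin, the most abundant member, stood at 161 and 158 against 158 and 144 FPKM and did not pass (-0.08). Most progenitor regulators thus rose and nestin gave no call. Genes of differentiated neurons rose in 7 of 19 cases tested of 29 fixed and fell in 1. Apart from MAP2 the genes that rose stayed low: GAP43, a growth cone protein, stood at 1.21 and 1.49 against 5.32 and 5.26 FPKM, SYP, synaptophysin, at 0.747 and 0.541 against 3.0 and 2.38 FPKM, and STMN2 at 0.14 and 0.0776 against 1.24 and 1.36 FPKM. NCAM1, the neural cell adhesion molecule that heart cells also carry, fell from 62.2 and 65.9 to 34.7 and 21.1 FPKM, and TUBB3, at 74.5 and 79.7 against 68.6 and 72.5 FPKM, did not pass.

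Of 13 neural crest genes tested (15 fixed), 3 rose and 4 fell, beside 22.1% and 19.9% of all genes tested. SOX9 rose from 4.54 and 3.6 to 16.3 and 18.5 FPKM, TFAP2C by 1.65 and NGFR by 1.27. MSX2, a homeobox target of BMP, fell from 56.4 and 58.7 to 18.6 and 15.2 FPKM, and TWIST1, a basic helix-loop-helix factor of mesenchyme (-1.63), MSX1 (-1.01) and SNAI2 (-0.56) fell as well. SNAI2 lost its call without wild-type replicate 1 (-0.62) or 2 (-0.50) and labelled knockout replicate 1 (-0.35), and under the nuclear scaling (-0.38). Of 13 paraxial mesoderm genes tested (22 fixed) only the NOTCH genes DLL1 (2.39) and LFNG (0.85) rose, and UNCX, a somite factor, fell (-1.25). The 5 HOX genes tested of 39 fixed, all of the HOXB cluster, gave no call, and HOXB2 stood at 11.4 and 10.2 against 9.85 and 10.2 FPKM. The 8 of 13 pluripotency genes tested (18 fixed) that rose included DNMT3B, a DNA methyltransferase of early embryos, at 33.4 and 29.9 against 90.1 and 76.1 FPKM, SALL4, at 43.1 and 43.3 against 113 and 107 FPKM, and LIN28A, at 619 and 596 against 852 and 795 FPKM. POU5F1, which encodes OCT4, stood at 114 and 111 against 130.4 and 114 FPKM and did not pass, and TDGF1, the NODAL co-receptor CRIPTO, and CD24 fell (-2.06 and -1.13). DPPA4, a chromatin-associated protein of pluripotent cells, rose from 36.1 and 34.9 to 85.7 and 70.2 FPKM.

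Most genes called in the pathways of the TGF-beta superfamily fell, ligands and targets among them. The activity of these pathways was not measured. Of 30 BMP pathway genes tested, 18 fell and 2 rose (median -0.65). Among ligands, BMP4 (-1.36), BMP2 (-0.67) and GDF6 (-1.71) fell. Among targets and feedback inhibitors, BAMBI, a decoy receptor, stood at 567 and 569.7 against 158 and 153 FPKM, SMAD7, an inhibitory SMAD, at 82.9 and 89.6 against 26.2 and 23.1 FPKM, and SMAD6, the other one, fell by 1.18. The members that rose were secreted antagonists, GREM1 at 1.35 and 1.31 against 10.8 and 10.8 FPKM and FST, follistatin, at 16.3 and 19.8 against 51.9 and 53.2 FPKM, and 4 members rose under the nuclear scaling. NOG, noggin, also an antagonist, fell by 1.04, so the antagonists did not move as 1 group. Of 17 NODAL and activin genes tested of 21 fixed, 10 fell and 2 rose (median -0.75). NODAL itself stood at 9.72 and 7.83 against 0.36 and 0.575 FPKM and its feedback inhibitor LEFTY2 at 6.8 and 6.58 against 0.152 and 0.101 FPKM. The ligands TGFB2, at 272 and 235 against 48.3 and 49.6 FPKM, and TGFB1, at 75.2 and 81.7 against 19.6 and 21.7 FPKM, fell too. FSTL1, the most abundant member, fell from 492 and 455 to 281 and 260.4 FPKM. Besides FST, the activin receptor ACVR2B rose (0.47), a call lost without wild-type replicate 2 (0.44) or labelled knockout replicate 1 (0.35).

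WNT pathway genes moved both ways, with 12 higher and 10 lower of 40 tested (43 fixed), beside 22.1% and 19.9% of all genes tested. Non-canonical ligands fell: besides WNT11, WNT5B stood at 60.2 and 61.1 against 14.2 and 13.7 FPKM and WNT5A fell by 1.29. The receptor FZD10 rose from 0.248 and 0.252 to 6.79 and 7.67 FPKM. AXIN2, a direct target and feedback inhibitor of beta-catenin signalling, rose by 1.42. Secreted antagonists of the SFRP class rose, SFRP2 from 10.1 and 10.5 to 84.5 and 81.8 FPKM, FRZB by 1.15 and SFRP1 by 0.77, whereas DKK3 fell by 1.45. TMEM88, a membrane inhibitor of WNT signalling in cardiac specification, fell from 83.8 and 91.7 to 44.1 and 50.6 FPKM. Without wild-type replicate 1 the count of WNT genes that rose was 7 of 40.

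NOTCH genes rose in 10 of 20 cases tested (22 fixed) and fell in 3, with a median of 0.57. The ligands JAG1, at 58.2 and 55.3 against 184 and 163 FPKM, and DLL1, at 8.4 and 11.7 against 59.7 and 53.01 FPKM, rose, as did the receptors NOTCH2 (from 19.3 and 18.7 to 51.4 and 42.2 FPKM), NOTCH3 (from 51.6 and 53.6 to 106 and 105 FPKM) and NOTCH1 (0.83). LFNG, which modifies the receptors, rose by 0.85 and DTX1, a regulator of their turnover, by 1.31. The 3 that fell were the target genes HES1 (-0.69) and HEY2 (-0.78) and the non-canonical ligand DLK1 (-0.80). HEY2, also a ventricular factor, lost its call without wild-type replicate 2 (-0.67). NRARP, a target and feedback inhibitor named after its values were seen, rose by 0.63, a call that no fit with 1 library left out kept (0.60 to 0.66), so the targets moved both ways.

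Hedgehog genes moved both ways. Of 13 tested of 15 fixed, 6 rose and 3 fell, beside 22.1% and 19.9% of all genes tested. The co-receptor BOC stood at 12.6 and 15.05 against 128 and 135 FPKM (3.16, SE 0.17, adjusted p = 9.84e-07), CDON at 20.8 and 17.9 against 86.1 and 63.01 FPKM and GAS1 at 19.6 and 19.6 against 52.3 and 55.8 FPKM. The transcription factors GLI3, at 15.3 and 12.4 against 96.5 and 58.9 FPKM, and GLI2, at 5.42 and 6.35 against 39.2 and 24.1 FPKM, and the signal transducer SMO (0.70) rose too. SHH, the ligand, fell from 7.06 and 7.81 to 1.46 and 0.353 FPKM and FOXF2, a forkhead target, from 8.05 and 8.07 to 2.16 and 2.29 FPKM. IHH fell by 0.47, but not once any 1 of the 4 libraries was left out (-0.39 to -0.55), nor under the nuclear scaling (-0.29). GLI1 (0.20) and PTCH1 (0.13), direct targets whose level is read as a measure of pathway output, did not pass.

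FGF genes (24 tested of 26 fixed) had 5 higher and 7 lower members, and 8 higher and 6 lower under the nuclear scaling. In the main fit 22.1% of all genes tested were higher and 19.9% lower. FGFR1, the main receptor of early mesoderm and neural tissue, stood at 144 and 141 against 397 and 364 FPKM, FGFR2 rose by 0.76, the ligand FGF2 by 1.02, SPRY2 by 0.58 and FGFR3 by 0.42. FGFR3 did not pass once any 1 of the libraries was left out (0.40 to 0.45). DUSP5, a phosphatase of ERK, fell from 33.4 and 32.6 to 11.8 and 10.1 FPKM, and the ligands FGF10 (-2.02) and FGF13 (-0.99) fell too. In the retinoid list (21 tested of 24 fixed) 6 rose and 7 fell, beside the same shares of all genes tested. CRABP1, the carrier that delivers retinoic acid for breakdown, stood at 30.5 and 30.4 against 146 and 152 FPKM and its relative CRABP2, which delivers it to receptors, at 521 and 545 against 249.9 and 267 FPKM. The carriers therefore moved in opposite directions. The receptors RARB, a direct retinoid target, and RARA fell, RARB from 30.5 and 28.1 to 7.46 and 9.72 FPKM and RARA with a change of -1.34. CYP26C1, a retinoic acid hydroxylase, rose by 1.31, and the nuclear receptors NR2F1 and NR2F2 by 2.92 and 1.15.

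Axon guidance genes, which heart and vessels also use, had 9 higher and 11 lower members of 30 tested. Of all genes tested, 22.1% were higher and 19.9% lower. Among ephrin receptors EPHA7 stood at 2.63 and 2.38 against 23.6 and 19.5 FPKM and EPHB1 at 2.05 and 2.22 against 17.2 and 14.8 FPKM, and EPHA4 rose by 1.33. The ligand EFNA1 fell from 119 and 117 to 21.7 and 27.2 FPKM. Among SLIT ligands SLIT1, the neural form, rose by 1.93 and SLIT3, the form of mesenchyme, fell from 60.2 and 58.7 to 12.5 and 11.4 FPKM, while the receptor ROBO2 fell by 1.92. UNC5B, a netrin receptor of vessels, fell by 1.76, and NRP2, a co-receptor of semaphorins and the most abundant member, from 747 and 725 to 434 and 355 FPKM. The counts depended on single libraries, with 5 higher without wild-type replicate 2 and 7 lower without labelled knockout replicate 2.

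Cell cycle genes rose. Of 28 genes of DNA replication and the G1/S step, 18 rose and 1 fell (median 0.71), and of 27 genes of mitosis and the spindle, 20 rose and none fell (median 0.72). CCND2, cyclin D2, stood at 48.8 and 47.6 against 111 and 101 FPKM, MCM7, a subunit of the replicative helicase, at 87.9 and 85.3 against 161 and 164 FPKM, and PCNA, the sliding clamp, at 23.5 and 19.3 against 40.8 and 43.9 FPKM. CCNB2, a mitotic cyclin, stood at 32.5 and 30.01 against 65.2 and 60.5 FPKM and TPX2, a spindle assembly factor, at 121 and 126 against 198 and 191 FPKM. KIF20A, a kinesin of cytokinesis, rose by 1.07, BUB1B, a spindle checkpoint kinase, by 1.25 and MKI67, the Ki-67 antigen, by 0.84. CCNE1, cyclin E1, was the exception and fell from 23.7 and 22.9 to 11.05 and 10.05 FPKM (-1.07). With 1 library left out the counts of genes that rose were between 11 and 14 for replication, where 2 fell without labelled knockout replicate 1, and between 13 and 15 for mitosis, from the lowest without wild-type replicate 1 in both lists.

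Inhibitors of the cycle fell. Of 4 cyclin-dependent kinase inhibitors tested of 7 fixed, 3 fell: CDKN1A, p21, at 13.2 and 14.2 against 0.776 and 0.487 FPKM, CDKN1C, p57, at 122 and 128 against 30.3 and 33.2 FPKM, and CDKN2D, p19, at 5.95 and 5.47 against 2.06 and 1.65 FPKM. CDKN1B, p27, did not pass (-0.25). In the list of p53 target genes, of 24 tested (27 fixed) 12 fell and 1 rose, with a median of -0.46. PHLDA3, an inhibitor of AKT, stood at 12.2 and 13.7 against 0.465 and 0.426 FPKM and changed by a similar amount to CDKN1A (-3.27 and -3.18). The next members were much smaller in their change, PLK2 at -1.22, the apoptosis gene BBC3 at -1.01, ZMAT3 at -1.0 and GADD45A at -0.87. CCNG1, the most abundant member, stood at 86.2 and 84.1 against 75.2 and 76.8 FPKM and did not pass. XPC, a DNA repair factor, rose by 0.53, a call lost without wild-type replicate 2 (0.51) or labelled knockout replicate 1 (0.40), and under the nuclear scaling 7 of the 24 fell and 2 rose.

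Other lineages were mostly lower. Endoderm genes fell in 12 of 13 cases tested of 17 fixed (median -1.28), with APOE, an apolipoprotein, at 1457 and 1507 against 601 and 636 FPKM, APOA2 at 38.8 and 35.9 against 6.52 and 7.29 FPKM and HHEX, a homeobox factor of liver and foregut, at 118 and 120.2 against 39.2 and 43.6 FPKM. Epithelial genes fell in 13 of 16 cases (median -1.19), with KRT19 at 2604 and 2638 against 581 and 581 FPKM, EPCAM, an epithelial adhesion molecule, at 240.4 and 228 against 62.2 and 66.1 FPKM and PKP2, plakophilin 2 of the desmosomes of epithelium and heart, at 114 and 107 against 40.2 and 41.3 FPKM. KRT8 fell to unequal levels in the labelled knockout replicates (1828 and 1074 FPKM, from 3824 and 3796 FPKM). Endothelial genes fell in 7 of 11 cases tested of 14 fixed (median -1.0), with CDH5, vascular endothelial cadherin, at 11.1 and 9.93 against 2.17 and 2.59 FPKM, ENG, endoglin, at 8.28 and 8.48 against 0.931 and 1.48 FPKM, and FLT1, a VEGF receptor, at 17.5 and 15.96 against 7.56 and 7.42 FPKM. Smooth muscle genes fell in 7 of 11 cases tested of 12 fixed, with TAGLN at 349 and 375 against 78.00 and 74.3 FPKM and MYL9 at 245 and 276 against 80.7 and 92.95 FPKM. MYLK, the myosin light chain kinase, rose there (3.2 and 2.9 against 12.2 and 8.91 FPKM). Matrix genes fell in 12 of 21 cases tested of 25 fixed and rose in 1. SPARC, a matricellular protein, stood at 1133 and 1092 against 404 and 298 FPKM, COL1A2, collagen I, at 174 and 165 against 69.6 and 65.6 FPKM, and FBN1, fibrillin 1, which rose, at 4.23 and 5.64 against 19.4 and 17.2 FPKM.

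Streak and early mesoderm genes fell in 6 of 12 cases tested of 16 fixed and rose in 1. MIXL1, a homeobox factor of the streak, stood at 6.48 and 8.04 against 1.36 and 1.16 FPKM, EVX1 at 11.8 and 14.7 against 2.6 and 2.46 FPKM, and GSC, goosecoid of the organizer, rose from 0.15 and 0.381 to 2.05 and 1.73 FPKM. KDR, also a receptor of endothelium, fell by 0.57, and lost its call without wild-type replicate 1 (-0.50) or labelled knockout replicate 2 (-0.45). Of 3 epicardial genes tested of 10 fixed SEMA3D fell (-0.93), a call lost without the same libraries (-0.65 and -0.71), of 3 blood genes tested of 14 fixed LMO2 fell (-1.06), and of 3 skeletal muscle regulators tested of 18 fixed PAX3 rose.

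Several groups of the general cell state changed. Of 20 interferon-inducible and antigen presentation genes tested of 23 fixed, 10 fell and 1 rose. B2M, the light chain of MHC class I, stood at 379.8 and 399 against 86.1 and 90.3 FPKM (-2.13, SE 0.11, adjusted p = 9.29e-07), and the class I heavy chains HLA-B and HLA-C fell by 1.38 and 1.40 on the log2 scale. The HLA genes resemble one another and may share reads. IFITM2, an antiviral membrane protein, fell by 1.83 and ISG15, a ubiquitin-like modifier, fell by 1.35. IRF9 rose (1.00), a call lost without wild-type replicate 2 (0.76) or labelled knockout replicate 1 (0.74). Of 19 immediate early genes tested of 25 fixed, 8 rose and 7 fell, beside 22.1% and 19.9% of all genes tested. EGR1, a zinc finger factor induced by growth signals, stood at 4.42 and 6.14 against 25.7 and 22.6 FPKM, EGR3 at 0.11 and 0.056 against 5.21 and 3.65 FPKM and FOS rose by 1.19, while CYR61, a matrix protein induced by stretch, fell from 103 and 105 to 43.9 and 44.2 FPKM, and IER3 (-1.19) and JUND (-0.71) fell too. The count of immediate early genes that rose was 5 without wild-type replicate 1 or either labelled knockout replicate.

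Of 23 stress genes, 10 fell and 5 rose, beside 19.9% and 22.1% of all genes tested. The 5 that rose included enzymes of amino acid supply. ASNS, asparagine synthetase, stood at 17.1 and 18.9 against 48.7 and 57.7 FPKM, PSAT1, of serine synthesis, at 26.03 and 25.5 against 76.9 and 82.9 FPKM, the transcription factor ATF5 rose by 1.52, CHAC1, which degrades glutathione, by 1.63 and SHMT2, of one-carbon metabolism, by 0.42. SHMT2 lost its call without wild-type replicate 1 (0.34) or labelled knockout replicates 1 (0.43) or 2 (0.41). Chaperones of the endoplasmic reticulum were among the falls, HSP90B1 (-0.70) and SDF2L1 (-1.42). Of 25 sterol and fatty acid synthesis genes, 7 fell and 3 rose, beside 19.9% and 22.1% of all genes tested. The falls were led by SC5D, an enzyme of cholesterol synthesis, at 172 and 156 against 62.4 and 55.8 FPKM. ACACA, acetyl-CoA carboxylase, rose by 0.91. The other risers were SREBF1 (1.22, not passing without wild-type replicate 1 at 1.17 or labelled knockout replicate 1 at 0.86) and LSS (0.53, not passing without any 1 of the libraries, 0.48 to 0.58). Under the nuclear scaling 6 of these 25 fell and 7 rose. Of 13 imprinted growth genes tested of 18 fixed, 6 fell and 4 rose, beside the same shares of all genes tested. IGF2 stood at 95.3 and 99.7 against 41.02 and 31.7 FPKM and its neighbour H19, a non-coding RNA expressed from the other parental copy, at 355 and 355 against 163 and 143 FPKM, so both fell. GRB10, a growth inhibitor, rose by 0.75, PHLDA2 by 1.07, MEST by 0.74 and IGF2R by 0.56. Without wild-type replicate 2 PHLDA2 (0.86), MEST (0.79) and IGF2R (0.56) did not pass. MEST (0.70 and 0.43) and IGF2R (0.56 and 0.41) did not pass without wild-type replicate 1 or labelled knockout replicate 1 either, nor PHLDA2 without labelled knockout replicate 2 (0.94).

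Of 77 cytoplasmic ribosomal protein genes, 20 fell (26.0%) and none rose, with a median of -0.26. Among all genes tested 19.9% fell and 22.1% rose. RPS9 stood at 2859 and 2931 against 2069.9 and 1912 FPKM. RPS23, the most abundant member, stood at 3111 and 3146 against 3449 and 3835 FPKM and did not pass (0.22), but was higher under the nuclear scaling (0.42). That scaling left 2 lower and 4 higher members, so no direction of this list holds under both. Without wild-type replicates 1 and 2 the count of lower members was 7 and 3, and without labelled knockout replicates 1 and 2 it was 7 and 11.

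**Figure D4:**
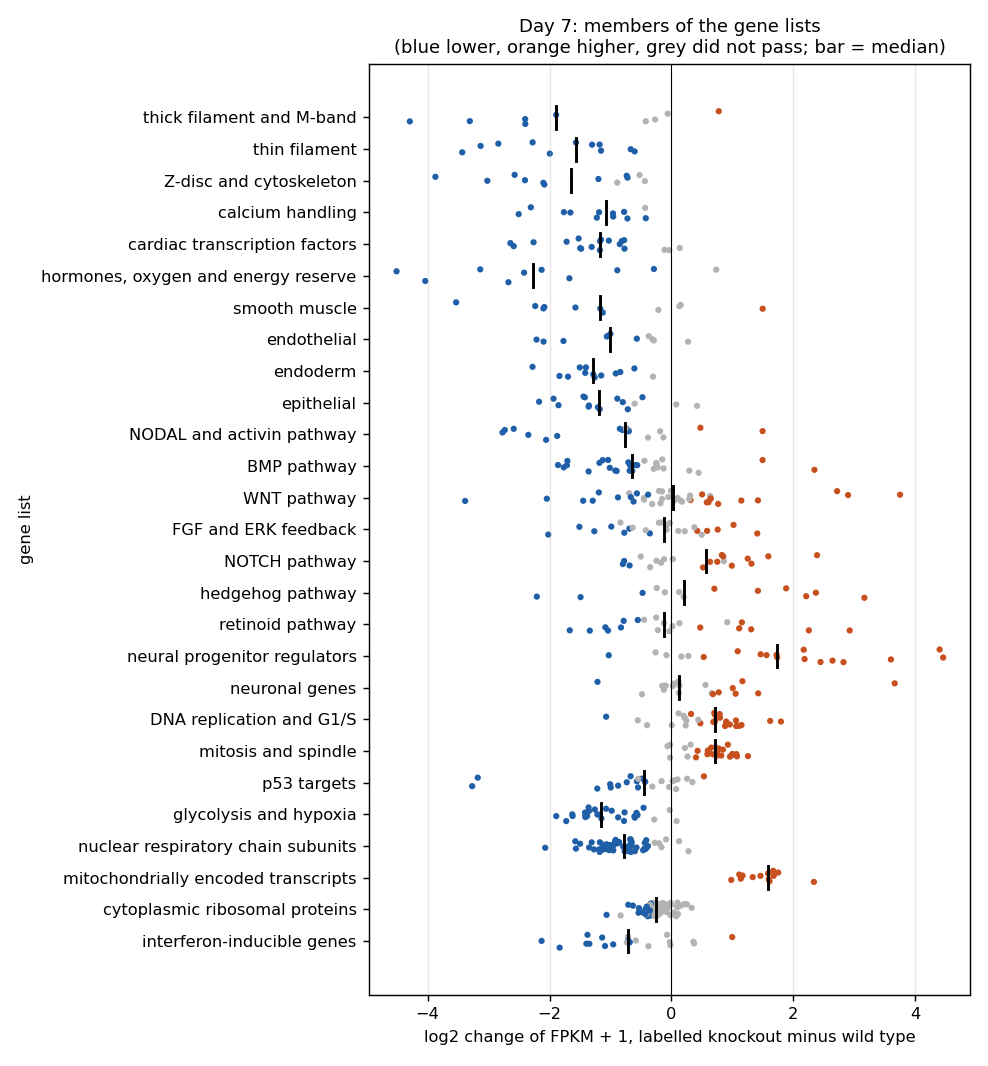
Log2 change of FPKM + 1 at day 7 of the members tested in 27 gene lists, 1 row a list. Orange points rose, blue points fell, grey points did not pass, and black bars are medians, which run from -2.27 for hormones, oxygen and energy reserve to 1.72 for neural progenitor regulators.

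How far the day 7 effect was that of its stage was asked by testing the genotype effect at day 7 against that at the neighbouring days. Between days 3 and 7 the effect differed for 3285 genes (20.2%), moving up for 1835 (11.3%) and down for 1450 (8.9%). This count was 1947 and 1930 without wild-type replicates 1 and 2. Between days 7 and 15 it differed for 5173 genes (31.7%), moving up for 2698 (16.6%) and down for 2475 (15.2%). The day 7 libraries enter both tests. At day 3 itself 23.6% of genes changed (9.51% higher and 14.1% lower), and at day 15 35.1% (18.9% and 16.2%). All 13 mitochondrially encoded transcripts moved up between days 3 and 7 and down between days 7 and 15, with median effects of 0.04, 1.59 and -1.14 at the 3 days. Glycolysis and hypoxia genes did the reverse, 22 of 27 moving down and then 24 moving up, with medians of 0.29, -1.15 and 0.69. Both lists therefore had their effect at day 7 in the direction opposite to day 15.

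Cardiac transcription factors and thin filament genes had a lower median at day 7 than on either side. Of 19 cardiac transcription factors, 10 moved down and 2 up between days 3 and 7, and 14 moved up and 1 down between days 7 and 15 (medians -0.22, -1.17 and -0.05). Of 11 thin filament genes 9 moved down and none up, and then 5 up and 3 down (medians -0.37, -1.57 and -1.17). HSPB7 stood at 126 against 134 FPKM at day 15 (group means) with an effect of 0.07, after a day 7 effect of -3.87. MYH6 stood at 667 against 873 FPKM at day 15, so its mean was then the higher in the labelled knockout. MYH7 stood at 429 against 25.9 FPKM there, with effects of -4.29 at day 7 and -4.01 at day 15. Of 16 epithelial genes 9 moved down and 1 up by day 7, and 13 up and 1 down after it. Of the neural progenitor regulators 9 of 19 moved up and 2 down by day 7, and then 7 up and 4 down, with medians of 0.35, 1.72 and 1.86. SOX2 was higher on all 3 days (2.15, 2.82 and 2.46). Of the p53 targets 13 of 24 moved up between days 3 and 7, as the median went from -1.34 to -0.46. DNA replication genes moved up by day 7 in 14 of 28 cases and down in 1, with medians of -0.13, 0.71 and 0.36.

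The largest single differences of the effect included genes of the day 7 extremes. EGR1 turned from a fall at day 3 (-1.95) to a rise at day 7 (2.01), a difference of 3.96 (SE 0.25, adjusted p = 7.28e-06). FABP3 turned from a rise (1.37) to a fall (-3.14). TPBG turned from a fall (-0.83) to a rise (3.55). After day 7, MB turned from a fall (-2.67) to a rise of 2.35, a difference of 5.02 (SE 0.33, adjusted p = 7.24e-06). POU4F1, a POU-domain factor of sensory neurons, went from 1.43 to -3.10. In these genes the sign of the effect was opposite on neighbouring days, and each of the 2 effects passed its own test.

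**Figure D5:**
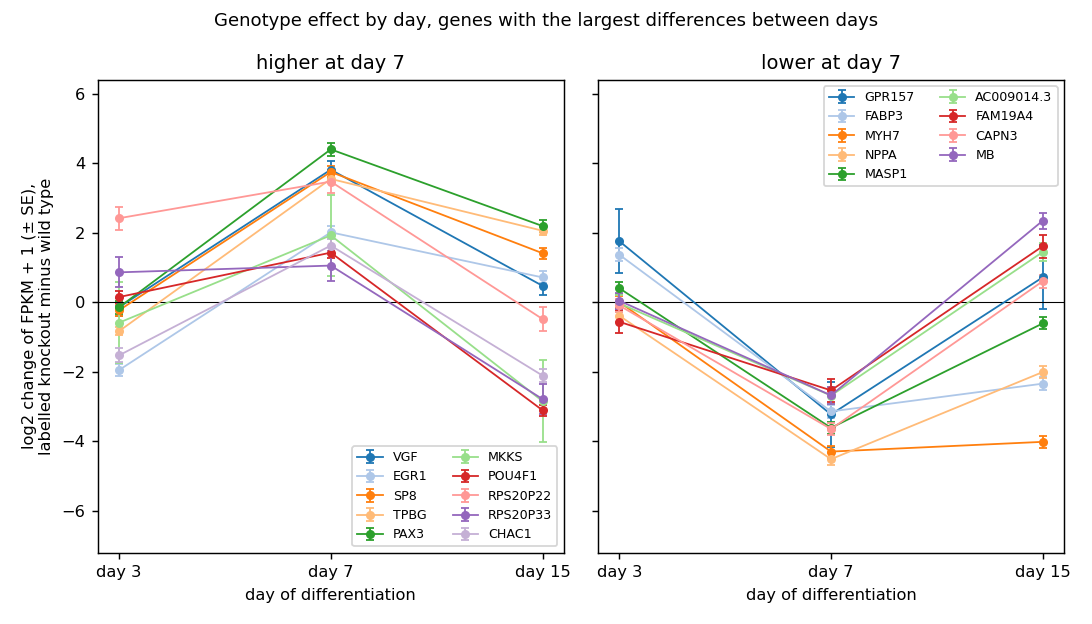
Genotype effect (log2 change of FPKM + 1, with SE bars) at days 3, 7 and 15 for 19 of the genes with the largest differences between neighbouring days, split into those above 0 (left) and below 0 (right) at day 7. PAX3 peaks at 4.4 at day 7, and MB crosses from below 0 at day 7 to 2.35 at day 15.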

How the data were processed

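RNA of the 12 libraries was sequenced on a HiSeq X10, per the labels' protocols. BWA and hg38 (GRCh38) are named in the submitters' processing notes. Which program counted the reads, with what annotation and strand setting, is not given in the sources used here. The authors deposited 1 table of 17096 symbols per library, whose values behave as FPKM. All were above 0, 22 symbols had been turned into dates and 9 occurred more than once, and none of these was named. Fragment numbers are estimates from the steps between low values of 23 to 36 single-transcript genes a library, of which 58.6% to 73.9% lay within 0.1 of a whole fragment in the day 7 libraries, so no count test was run.

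From these values, log2(FPKM + 1) of genes at 1 FPKM or more in at least 2 of the 12 libraries was fitted with limma 3.58.1 in R 4.3.3 (trend option, 6 group means, 6 residual degrees of freedom, two-sided, Benjamini-Hochberg adjustment over 16295 genes, threshold 0.05). On simulated data of that many genes it recovered 58% of changes of 1 and 97% of changes of 2 on the log2 scale. The fold change of FPKM + 1 understates changes of low genes. Alternatives were a median-ratio and a nuclear-sum rescaling, 2 other filters, a pseudocount of 0.1, no trend, a replicate block, day 7 alone and each day 7 library left out. Named were the 12 largest rises and falls whose higher group averaged 5 FPKM or more and whose groups did not overlap, up to 4 called members of each list by adjusted p with its most abundant and its contrary members, 14 genes fixed by name, and the 5 largest differences between days in each direction. The members and lists were chosen with earlier results of these data known. No 2 libraries held identical values. Promoter sequences are from RefSeq on GRCh38.p14, and 10915 genes tested matched an entry. 15042 symbols were placed in GENCODE 29. Some genes that the naming rule takes are not reported here.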

Additional observations from a re-analysis of the deposited data

Results flagged for a closer look

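The genotype effect at day 7 was tested against the effect at day 3 and at day 15 with limma, and differed for 3285 and 5173 genes. The largest differences in each direction are given here as differences of log2 changes. From day 3 to day 7 the effect moved down for FABP3 (-4.51), MYH7 (-4.30), NPPA (-4.13) and MASP1 (-4.01). It moved up for PAX3 (4.54), TPBG (4.38), SP8 (3.98), EGR1 (3.96) and VGF (3.95). The fifth that moved down was GPR157, an orphan G protein-coupled receptor (-4.98, SE 1.31, adjusted p = 0.0229), whose replicates disagreed: wild-type levels at day 7 were 15.1 and 55.8 FPKM. Its call ended without wild-type replicate 2 (-4.07) and without labelled knockout replicates 1 (-5.02) and 2 (-4.94).

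From day 7 to day 15 the effect moved up for MB (5.02), CAPN3 (4.25), FAM19A4, a chemokine-like protein (4.14), and AC009014.3 (4.13). It moved down for POU4F1 (-4.53), CHAC1 (-3.74) and the ribosomal protein pseudogenes RPS20P22 (-3.95) and RPS20P33 (-3.84). CHAC1 had an effect of -1.52 at day 3, 1.63 at day 7 and -2.10 at day 15. MKKS, a chaperonin-like protein, moved down by the largest amount (-4.77, SE 1.66, adjusted p = 0.0495), and this rests on 1 library: its day 7 levels were 10.2 and 8.19 FPKM in the wild type and 9.0 and 147 FPKM in the labelled knockout. The call ended without labelled knockout replicate 2 (-2.82), without either wild-type replicate (-4.91 and -4.62), under the median-ratio rescaling, with no filter, with a pseudocount of 0.1 and with no trend.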

How the results depend on the processing

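No gene named as risen or fallen changed sign under any alternative run. Under the nuclear-sum rescaling the numbers higher and lower of all genes tested went from 3602 and 3250 to 5038 and 2362. Some lists turned in that direction too. They went from 0 and 20 to 4 and 2 for ribosomal proteins and from 5 and 7 to 8 and 6 for FGF genes. For retinoid genes they went from 6 and 7 to 7 and 6, and for sterol synthesis from 3 and 7 to 7 and 6. For axon guidance they went from 9 and 11 to 11 and 9. With 1 day 7 library left out, the number of changed genes was between 4512 and 5252, of higher genes between 2321 and 2780 and of lower genes between 2191 and 2629. The number whose effect differed from day 3 was then between 1930 and 2558, and from day 15 between 3677 and 4422. The library that remains alone in its group is assumed to vary like the others, and each such fit has 5 residual degrees of freedom. The other alternatives gave 5873 (filter at 5 FPKM) to 7400 (nuclear-sum rescaling) changed genes. Same-numbered replicates did not deviate together (correlations of 0.04, 0.02 and -0.12 at days 3, 7 and 15). With 2 libraries a group this cannot decide whether the libraries were paired. With the replicate block 6914 genes changed, 6686 of them among those changed without it. Of 335 genes followed, 10 lost and 6 gained a call under the nuclear-sum rescaling, and 22 to 29 lost one with 1 library left out. Changes of about 1 on the log2 scale and below are those that 2 libraries a group limit most.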

Other observations

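The largest change that did not pass the test belonged to PCDH19, a protocadherin of the nervous system. Its day 7 values were 0.363 and 0.495 FPKM for wild-type and 1019 and 0.972 FPKM for labelled knockout libraries (log2 change 4.97, SE 1.97, adjusted p = 0.0647 with limma), so that 1 library held nearly all of it. Its group means at the other days were between 0.337 and 10.2 FPKM. RMRP, the RNA of a ribonuclease, had 0.003835 and 79.2 FPKM for wild type against 114 and 23.3 FPKM (2.56, SE 2.19, adjusted p = 0.375). Both genes were picked after their values were seen.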
